A study of Mus musculus with 12 samples.

Results

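Collagen genes outside type IV were followed in mouse liver during diet-induced nonalcoholic steatohepatitis (NASH), a fatty liver disease with inflammation and scarring. The members are all rows whose symbol has the form of a collagen chain gene (Col, a type number, a, a chain number) other than the Col4a genes, a rule that uses names and no measured value. It took 33 of 16703 genes in the whole-liver table and 32 of 16273 in the table of liver sinusoidal endothelial cells (LSEC), 34 genes in all and 31 in both. Col10a1 and Col22a1 were rows of the liver table alone, and Col19a1 of the LSEC table alone. RNA-seq libraries came from C57BL/6 mice in 4 groups of 3 libraries: liver on chow, liver on NASH diet, LSEC on chow and LSEC on NASH diet. The protocol names 36 weeks of NASH diet and is attached to every sample, the chow samples included. LSEC were taken from non-parenchymal liver cells by removing CD11b-positive cells and then collecting CD146-positive cells on magnetic beads. No genotype, age or sex is given in the sources used here, and nothing there says whether the 3 libraries of a group are separate animals, so each p-value reflects only how far these samples spread, which may be technical.

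Collagens are triple-helical proteins of the extracellular matrix, built from 3 chains that may be products of different genes. Fibrillar collagens form the banded fibres of scar tissue, FACIT collagens sit on the surface of those fibres, and type VI collagen forms beaded filaments around cells. The remaining classes include the multiplexins of basement membranes, the short-chain network collagens and collagens anchored in the cell membrane. In injured liver, activated hepatic stellate cells and portal fibroblasts are known as the main makers of fibrillar collagen.

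Each tissue was tested alone with limma on log2(normalized reads + 1), and a gene was called when its Benjamini-Hochberg adjusted p over all genes was under 0.05. Depth, as whole reads recovered from the tables, ran from 47000197 to 57397720 in the liver libraries and from 18527017 to 19402863 in those of LSEC. Fold changes below are NASH over chow on that scale, where the change of a gene with few reads is understated. In bulk RNA, fewer cells of a type and less RNA per cell cannot be told apart. Scaling each library to its total reads in place of the authors' factors moved the median log2 fold change of all genes up by 0.402 in liver and by 0.135 in LSEC. LSEC libraries are numbered by their place in the table, as names only.

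Most of the collagen genes rose in NASH liver. There, 18 members were called higher and 4 lower, 66.7% of the members, beside 46.0% of all genes tested (25.0% higher and 21.0% lower). With scaling to total reads the split among the members was 19 higher and 1 lower, and over all genes it moved the same way, from 4179 higher and 3512 lower to 7880 and 904. The median log2 fold change was 1.01 over the 33 members and 0.02 over all genes. By class, 7 of 9 fibrillar, 4 of 7 FACIT and 4 of 6 beaded filament members rose, with median log2 fold changes of 2.27, 1.23 and 2.08. Among the 11 other collagens 3 rose and 3 fell, and their median was 0.61. The diets did not overlap for 22 of the 33 members, beside 57.1% of all genes. Of the 33 members, 18 averaged 50 or more normalized reads in liver and 7 averaged under 10.

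In LSEC, 13 members were called higher and 2 lower, 46.9% of the members, beside 8.11% of all genes tested (5.24% higher and 2.86% lower). Their median log2 fold change was 1.17, against 0.00 over all genes. The rises were 6 of 9 fibrillar (median log2 fold change 2.07), 2 of 7 FACIT (1.41), 3 of 6 beaded filament (1.70) and 2 of 10 other members (0.42), and both falls were transmembrane collagens. The diets did not overlap for 17 of the 32 members, beside 31.9% of all genes. Of these 32, 18 averaged 50 or more normalized reads and 5 under 10. Many of these calls were lost when a library was left out, which also leaves fewer libraries to test. Then 6 members were called higher without chow library 3, 8 without NASH library 1, 7 without NASH library 2 and 5 without NASH library 3. For some of the lost members the log2 fold change was larger without the library, and for others smaller. Col1a1, Col1a2, Col3a1, Col5a2 and Col15a1 were called in LSEC whichever library was left out. On recovered reads edgeR called 18 members higher and 4 lower in liver and 13 and 2 in LSEC, beside 45.3% and 7.16% of all genes. DESeq2 called 18 and 3 in liver and 14 and 2 in LSEC, beside 44.5% and 15.4%. The authors' deposited table gave an adjusted p under 0.05 to 21 members in liver, all among the 22 called here, and to 16 in LSEC, 15 of them among those called here, beside 44.6% and 15.6% of all genes.

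**Figure D1:**
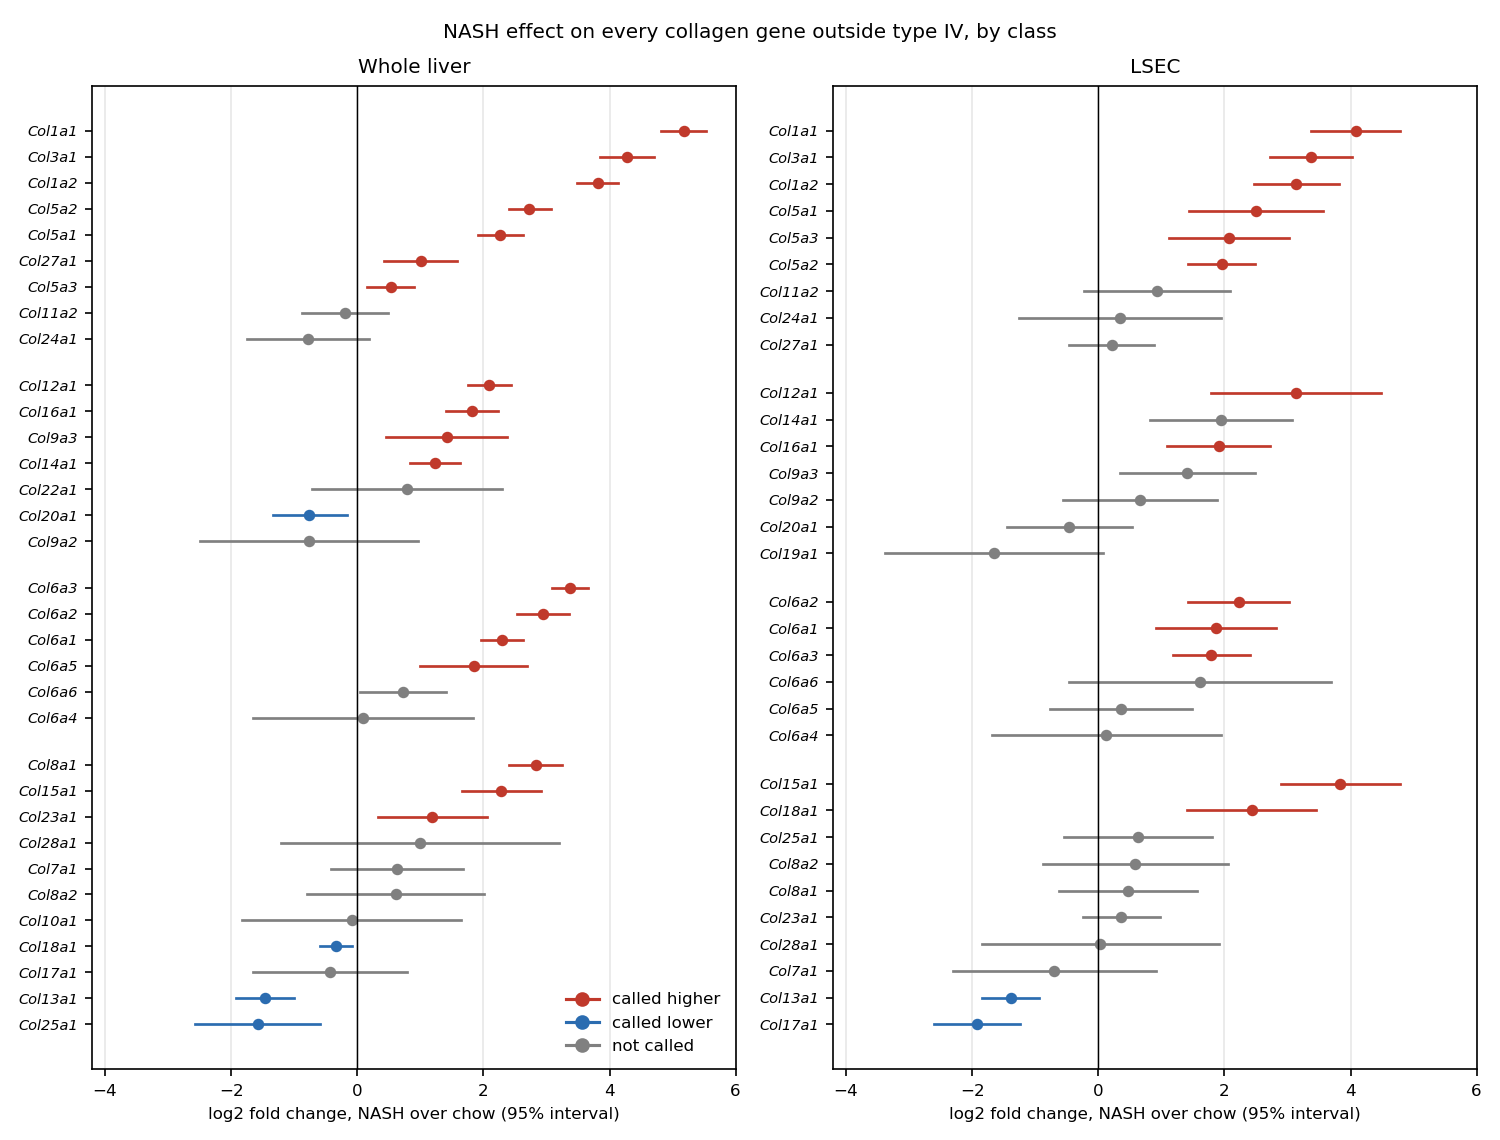
Log2 fold change of NASH over chow for every collagen gene outside type IV in liver (left) and LSEC (right), with 95% intervals from limma, grouped by class from top to bottom as fibrillar, FACIT, beaded filament and others; red points were called higher, blue points lower and grey points were not called. Col1a1 leads in both tissues at 5.18 and 4.08, and Col18a1 is lower in liver (-0.34, or 0.08 when libraries are scaled to total reads) and higher in LSEC (2.43).

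The stretches just before the transcription start are printed for 5 members that stand for the patterns below: Col3a1 rose in both tissues, Col13a1 fell in both, Col6a3 and Col8a1 rose by more in liver, and Col15a1 rose by more in LSEC. Each line holds the 250 bases before the start in RefSeq (GRCm38.p6), written 5′ to 3′ on the gene's strand, and capitals mark a match, on either strand, to TATAAA, known as the TATA box, to GGGCGG, known as the GC box, or to the CCAAT box.
Col3a1 (chr1:45311288-45311537, plus strand): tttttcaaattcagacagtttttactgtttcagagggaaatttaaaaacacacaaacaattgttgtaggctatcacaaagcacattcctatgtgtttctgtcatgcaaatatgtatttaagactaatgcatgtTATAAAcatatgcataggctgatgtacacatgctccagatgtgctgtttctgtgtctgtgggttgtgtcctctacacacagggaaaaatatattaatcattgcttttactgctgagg
Col13a1 (chr10:61979109-61979358, minus strand): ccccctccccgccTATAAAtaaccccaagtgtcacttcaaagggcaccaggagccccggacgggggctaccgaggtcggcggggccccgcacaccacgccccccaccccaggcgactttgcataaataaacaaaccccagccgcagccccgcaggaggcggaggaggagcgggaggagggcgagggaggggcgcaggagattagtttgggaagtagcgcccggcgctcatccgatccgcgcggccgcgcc
Col6a3 (chr1:90843972-90844221, minus strand): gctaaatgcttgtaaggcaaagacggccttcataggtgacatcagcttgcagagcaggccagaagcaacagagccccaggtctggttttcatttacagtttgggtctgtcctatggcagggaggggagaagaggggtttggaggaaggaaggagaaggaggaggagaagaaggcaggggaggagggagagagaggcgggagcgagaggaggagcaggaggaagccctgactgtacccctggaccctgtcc
Col8a1 (chr16:57754738-57754987, minus strand): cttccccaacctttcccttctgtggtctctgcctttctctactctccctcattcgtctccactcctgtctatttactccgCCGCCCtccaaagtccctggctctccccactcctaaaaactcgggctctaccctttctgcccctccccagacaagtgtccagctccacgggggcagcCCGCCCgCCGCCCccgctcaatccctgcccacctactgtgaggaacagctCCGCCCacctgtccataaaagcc
Col15a1 (chr4:47207762-47208011, plus strand): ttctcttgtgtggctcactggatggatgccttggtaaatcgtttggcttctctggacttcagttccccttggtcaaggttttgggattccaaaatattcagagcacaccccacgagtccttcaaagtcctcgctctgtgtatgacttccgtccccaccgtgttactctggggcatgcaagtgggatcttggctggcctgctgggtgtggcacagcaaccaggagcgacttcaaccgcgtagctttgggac
The TATA box was searched as TATAAA and its reverse complement TTTATA. The GC box was searched as GGGCGG and its reverse complement CCGCCC. The CCAAT box was searched as CCAAT and its reverse complement ATTGG, and none of the 3 motifs contains another. Col3a1 and Col13a1 hold 1 TATA match each, Col8a1 holds 4 GC boxes, Col6a3 and Col15a1 hold none of the 3 motifs, and no CCAAT match lies in any of the 5 windows. The RefSeq table held 30 promoters for 28 of the 34 members. The GC box was found in 18 of those 30, the CCAAT box in 8 and the TATA box in 5, beside 32.7%, 33.8% and 12.4% of all 32851 promoters in windows of the same length. The GC content of the printed windows ran from 35.2% in Col3a1 to 68.8% in Col13a1. A match is a description of letters, and the RNA data hold no measure of binding at these windows.

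In liver the 3 largest rises were in fibrillar collagens, while in LSEC the log2 fold change of Col15a1, of another class, was 3.84, between those of Col1a1 and Col3a1. Col1a1 and Col1a2 encode the chains of type I collagen, the main protein of scar. Col1a1 lies on chromosome 11 at 94936224 to 94953042 (mm10, plus strand). In liver it had 256, 282 and 389 normalized reads on chow and 10433, 9916 and 12991 in NASH. In LSEC it had 285, 396 and 451 on chow and 9173, 4205 and 6425 in NASH. Every NASH library was above every chow library in both tissues, by 5.18 ± 0.16 in liver and 4.08 ± 0.30 in LSEC on the log2 scale (estimate and SE from limma, with Benjamini-Hochberg adjusted p = 1.23e-07 and 0.00261). Col1a2, on chromosome 6 at 4504814 to 4541544, went from 632, 694 and 871 to 9336, 9258 and 12286 normalized reads in liver. In LSEC it went from 473, 503 and 729 to 7266, 3471 and 4742. Its diets did not overlap in either tissue, and its log2 fold changes were 3.81 ± 0.14 and 3.14 ± 0.29 (limma adjusted p = 2.09e-07 and 0.00389).

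Col3a1, the single chain of type III collagen, a partner of type I in early scar and in the reticular fibres of liver, had the highest level per kilobase of the fibrillar genes in both tissues. On chromosome 1 at 45311538 to 45349706, it had 846, 939 and 1326 normalized reads in chow liver and 15970, 18900 and 25516 in NASH liver. LSEC libraries held 1225, 1120 and 1485 on chow and 20596, 9676 and 11425 in NASH. Diets were apart in both tissues, with NASH library 1 highest in LSEC, and the log2 fold changes were 4.28 ± 0.19 and 3.37 ± 0.28 (limma adjusted p = 7.18e-07 and 0.00322).

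Type V collagen is a minor part of fibrils that helps start them, and its 3 genes rose in both tissues by different amounts. Col5a2 rose by 2.73 in liver and 1.96 in LSEC on the log2 scale, and Col5a1 by 2.27 and 2.50. In LSEC, Col5a1 had 433.5, 142.5 and 367.5 normalized reads on chow and 2454, 1180 and 1442 in NASH, with no overlap. Col5a3 rose by 0.53 in liver (limma adjusted p = 0.024), from 649, 716 and 1037 to 1035, 1185 and 1184 normalized reads, where chow library 3 was as high as NASH library 1. In LSEC, Col5a3 had 46.0, 26.1 and 26.6 normalized reads on chow and 218, 87.7 and 134 in NASH, with no overlap, and rose by 2.07 (limma adjusted p = 0.0303). Col27a1, a fibrillar gene known mainly from cartilage, rose by 1.01 in liver (limma adjusted p = 0.00998) and stood at 0.22 in LSEC (adjusted p = 0.682). Neither tissue gave a call for Col11a2 (log2 fold change -0.20 in liver, 0.93 in LSEC) or Col24a1 (-0.78 and 0.34). Without any 1 of liver chow libraries 1 and 2 or NASH libraries 2 and 3 the liver call of Col5a3 was lost (adjusted p = 0.0728 to 0.0901), and that of Col27a1 without NASH library 1 (0.056). In LSEC, Col5a1 was lost without chow library 3 or any 1 NASH library (0.0661 to 0.0881), and Col5a3 without chow library 2 or 3 or any 1 NASH library (0.0529 to 0.114).

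**Figure D2:**
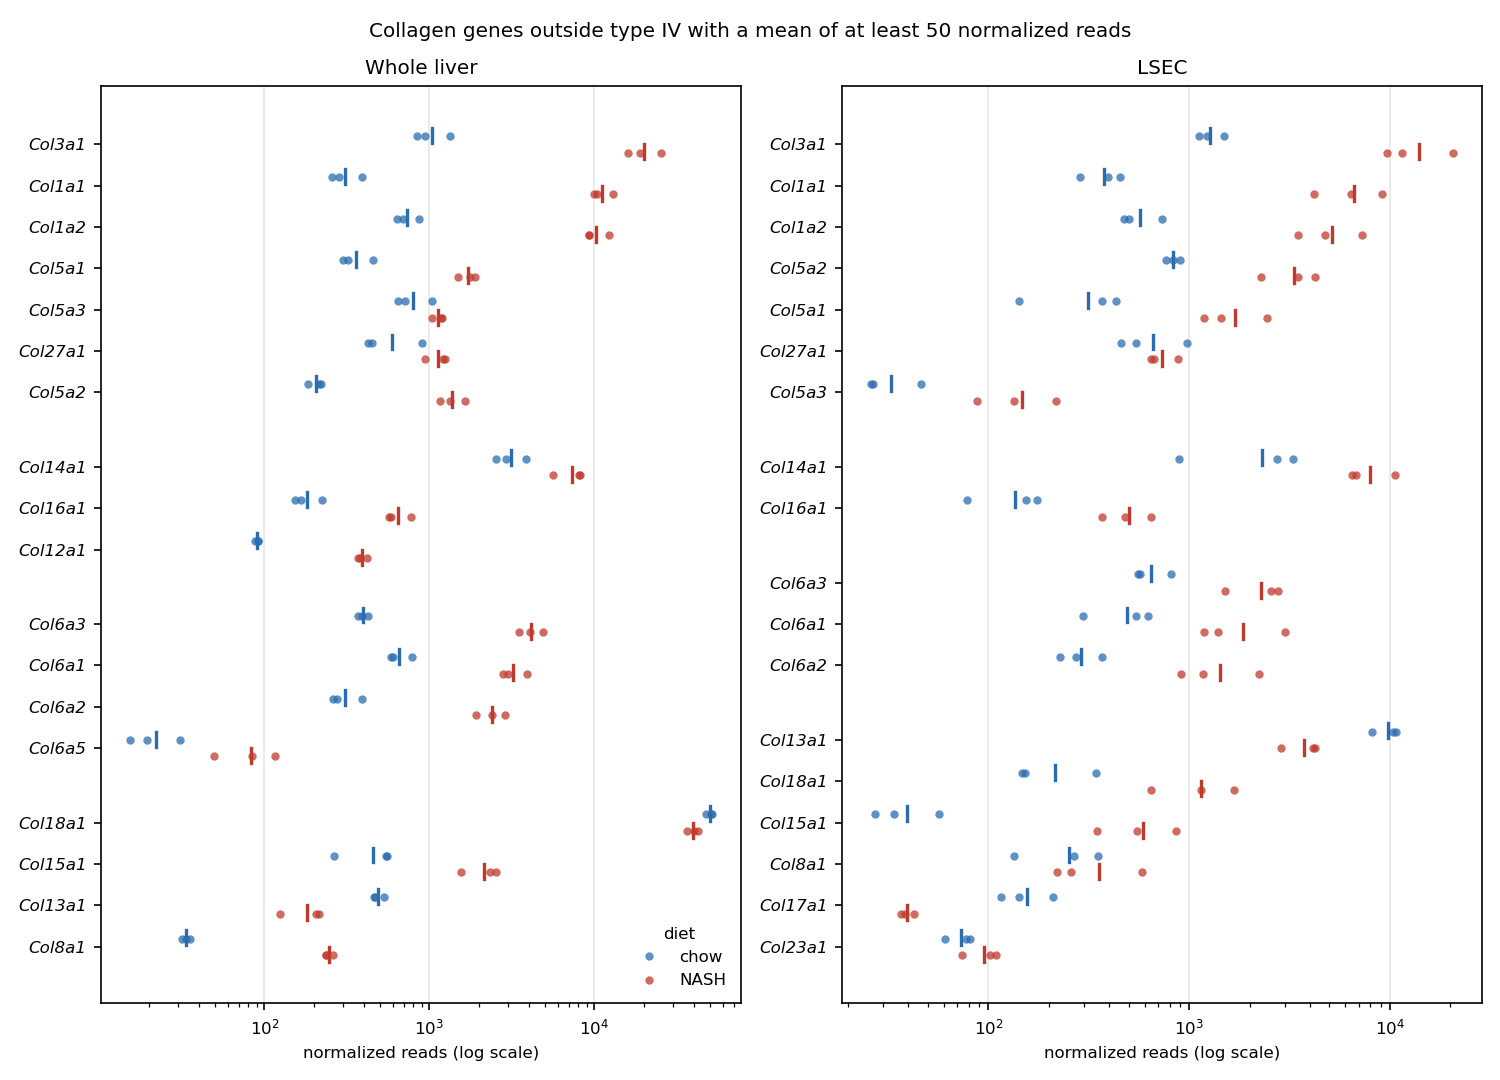
Normalized reads (log axis) of the members whose mean is 50 or more in liver (left) and LSEC (right); each point is a library, blue for chow and red for NASH, and each bar the mean of 3. Points of the diets lie far apart for Col3a1, Col1a1 and Col1a2 in both tissues and cross for Col5a3 in liver and for Col27a1, Col8a1 and Col23a1 in LSEC; the lower NASH values of Col18a1 in liver turn into a log2 fold change of 0.08 when libraries are scaled to total reads.

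Among the FACIT collagens, Col14a1 had the highest level per kilobase in both tissues. It encodes type XIV collagen, which binds to fibrils and their proteoglycans. Its normalized reads went from 2545, 2929 and 3845 to 5608, 8083 and 8220 in liver, with no overlap, a log2 fold change of 1.23 ± 0.18 (limma adjusted p = 0.000448). In LSEC they were 2739, 890 and 3301 on chow and 10609, 6453 and 6746 in NASH. The LSEC diets did not overlap either, but chow library 2 was far under the other chow libraries, and the log2 fold change of 1.95 ± 0.48 missed the threshold (limma adjusted p = 0.0523). Without chow library 2 it was 1.36 and called (limma adjusted p = 0.0308), and it was also called by DESeq2 (1.78, 0.00083) and with scaling to total reads (2.09, 0.0421). Col16a1 rose in both tissues, from 167, 153 and 225 to 587, 568 and 775 normalized reads in liver (log2 fold change 1.82) and from 155, 78.3 and 174 to 649, 480 and 368 in LSEC (1.91). Col12a1, which binds to type I fibrils under load, rose by 2.09 in liver and by 3.13 in LSEC, where its chow libraries held 4.18, 16.3 and 4.09 normalized reads.

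The low FACIT genes differed in direction. Col9a3, a chain of type IX collagen, rose in liver from 5.93, 9.71 and 13.3 to 34.0, 16.1 and 33.0 normalized reads (log2 fold change 1.42, limma adjusted p = 0.022) and had a log2 fold change of 1.41 in LSEC (adjusted p = 0.105). Col20a1 fell in liver, from 47.5, 46.4 and 49.2 to 30.3, 23.1 and 30.6 normalized reads, or by a log2 fold change of -0.76 ± 0.26 (limma adjusted p = 0.0377). Its liver diets did not overlap. Col9a2, Col22a1 (liver), Col19a1 (LSEC) and Col20a1 in LSEC were not called. Leaving out any 1 liver library took the call from Col20a1 (adjusted p = 0.0537 to 0.0963), as did scaling to total reads (0.32) and a replicate block (0.0556), and leaving out chow library 1 or 2 or NASH library 1 or 3 took it from Col9a3 (0.0552 to 0.0833). In LSEC, Col12a1 (0.0695 to 0.107) and Col16a1 (0.0575 to 0.0887) were lost without chow library 3 or any 1 NASH library.

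The 3 main chains of type VI collagen, the beaded filament that links cells to fibrils, rose in both tissues. Col6a3, on chromosome 1 at 90765923 to 90843971 (minus strand), had 370, 388 and 424 normalized reads in chow liver and 4069, 3485 and 4886 in NASH liver. LSEC libraries held 808, 557 and 571 on chow and 2770, 1507 and 2552 in NASH. No chow library reached a NASH library in either tissue, and Col6a3 rose by 3.38 ± 0.13 (liver) and 1.79 ± 0.26 (LSEC) on the log2 scale (limma adjusted p = 2.09e-07 and 0.0141).

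Col6a1 went from 584, 603 and 781 to 3004, 2787 and 3912 normalized reads in liver and from 546, 297 and 622 to 3002, 1183 and 1385 in LSEC. Col6a2 went from 261, 277 and 389 to 2399, 1908 and 2855 normalized reads in liver. On the log2 scale Col6a1 rose by 2.30 in liver and by 1.87 in LSEC, and Col6a2 by 2.95 and 2.23, with NASH apart from chow in each. Col6a5 rose in liver by 1.85 (limma adjusted p = 0.0032) from a chow mean of 21.9 normalized reads and had a log2 fold change of 0.36 in LSEC (adjusted p = 0.685). Col6a4 and Col6a6 were called in neither tissue. The liver diets did not overlap for Col6a6 (log2 fold change 0.72, limma adjusted p = 0.0769), which was called with scaling to total reads (1.13, 0.0137). Col6a4, Col6a5 and Col6a6 are related genes side by side on chromosome 9, so reads that match more than 1 of them make their values uncertain. LSEC calls were lost for Col6a1 without any 1 library (adjusted p = 0.0619 to 0.107), for Col6a2 without NASH library 3 (0.0633) and for Col6a3 without chow library 3 (0.0607) or NASH library 3 (0.0659).

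Multiplexins are basement membrane collagens with cleavable ends. Of their genes, Col15a1 rose in both tissues, while Col18a1 was called lower in liver and higher in LSEC. Col18a1, whose end fragment is endostatin and which hepatocytes are known to make, had the highest level per kilobase of the members in liver, and stood at 51614, 51295 and 47538 normalized reads on chow and 40293, 42554 and 36375 in NASH. In LSEC it had 152, 345 and 146 on chow and 642, 1144 and 1664 in NASH. The liver diets did not overlap and Col18a1 fell by 0.34 on the log2 scale (limma adjusted p = 0.031), but its log2 fold change was 0.08 with scaling to total reads (adjusted p = 0.437). In LSEC it rose by 2.43 ± 0.44 (limma adjusted p = 0.0244), again with no overlap. Col15a1, the other multiplexin, rose in both tissues: from 553, 545 and 262 to 2335, 1555 and 2522 normalized reads in liver (2.28 ± 0.28, adjusted p = 0.000185) and from 27.2, 56.6 and 33.8 to 548, 347 and 864 in LSEC (3.84 ± 0.40, limma adjusted p = 0.00556). The call of Col18a1 was lost in liver without chow library 1 or 2 or NASH library 1 or 3 (0.0584 to 0.119), and in LSEC without chow library 1 or 3 or NASH library 2 or 3 (0.0513 to 0.0902).

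The LSEC libraries held hepatocyte transcripts in unequal amounts beside those Col18a1 values. Summed over 9 hepatocyte markers (all but Tf, a symbol with no row in the table), they had 14027, 82187 and 6836 normalized reads on chow and 36196, 46767 and 74600 in NASH. Chow library 2 was highest for the markers and highest of the chow libraries for Col18a1. Within each diet the libraries had the same order for the marker sums as for Col18a1. The 9 markers missed the threshold in LSEC (limma adjusted p = 0.311 to 0.627), where Alb alone ran from 5800 to 61571 normalized reads on chow. Their log2 fold changes there were all positive, from 0.73 to 2.17 with a median of 1.37. Per 1000 hepatocyte marker reads, Col18a1 in LSEC stood at 10.9, 4.20 and 21.4 on chow and 17.8, 24.5 and 22.3 in NASH, with overlap (two-sided exact permutation p = 0.2). The same ratio in whole liver was 7.64 ± 0.354 on chow and 12.2 ± 0.845 in NASH (SD, n = 3 each; exact permutation p = 0.1, the smallest that 3 against 3 allows). The liver marker sums were 6415700, 6932505 and 6362078 normalized reads on chow and 3499456, 3238658 and 3049167 in NASH. Their fall raises the liver ratio, although Col18a1 itself was not called higher in liver. The part of hepatocyte RNA in the LSEC rise of Col18a1 was not tested.

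Transmembrane collagens span the cell membrane and can be shed from it, and both genes that fell in LSEC, 1 of which also fell in liver, are of this class. Col13a1, found at cell contacts with the matrix, lies on chromosome 10 at 61838236 to 61979108 (minus strand). It had 10678, 8109 and 10414 normalized reads in chow LSEC and 2866, 4240 and 4133 in NASH LSEC. In whole liver it had 534, 466 and 460 on chow and 214, 204 and 124 in NASH. Every NASH library was below every chow library in both tissues, a log2 fold change of -1.39 ± 0.19 for LSEC and -1.46 ± 0.21 for liver (limma adjusted p = 0.0118 and 0.000424). As a rate (recovered reads in each 1000000 reads of the library), Col13a1 stood at 545, 402 and 529 in chow LSEC against 8.71, 7.53 and 7.85 in chow liver. The LSEC call was lost without chow library 3 (adjusted p = 0.0561) or NASH library 3 (0.0519), and the liver call was made whichever library was left out.

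Col17a1, known as a hemidesmosome protein of skin, fell in LSEC from 142, 115 and 211 to 36.7, 38.2 and 42.8 normalized reads, with no overlap and a log2 fold change of -1.92 ± 0.29 (limma adjusted p = 0.0155). In liver it had at most 8.04 normalized reads in a library and a log2 fold change of -0.43 (adjusted p = 0.552). Col25a1, which is best known from neurons, fell in liver from 33.2, 47.5 and 31.8 to 5.51, 15.1 and 18.5 normalized reads (log2 fold change -1.58 ± 0.44, limma adjusted p = 0.0157). In LSEC it had 19.8, 20.7 and 35.8 on chow and 31.9, 23.3 and 76.2 in NASH, which overlap (log2 fold change 0.63, limma adjusted p = 0.471). Col23a1 moved the other way in liver and rose by 1.19 (limma adjusted p = 0.0295), with a log2 fold change of 0.36 in LSEC (adjusted p = 0.424). The LSEC call of Col17a1 was lost without chow library 3 or any 1 NASH library (adjusted p = 0.051 to 0.0636). In liver, Col25a1 was lost without chow library 2 (0.0689) and with scaling to total reads (0.0545), and Col23a1 without chow library 1 or 2 or NASH library 1 or 3 (0.0519 to 0.112).

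Most markers of sinusoidal endothelium fell beside these transmembrane genes in LSEC. Of 10 sinusoidal endothelium markers 6 fell there, beside 2.86% of all genes, and 1, Lyve1, rose (log2 fold change 1.40), beside 5.24%. The median log2 fold change of the 10 was -0.80, and their summed reads were 603619 to 622160 on chow and 317761 to 338305 in NASH. Of 8 general endothelial markers 1 was called, a rise of Mcam (log2 fold change 0.58, limma adjusted p = 0.0283), and the median was -0.29. In liver Mcam rose as well (0.87, limma adjusted p = 0.000998). Mcam is the gene of CD146, on which the LSEC were collected, and whether its rise changed which cells were collected was not tested. Per 1000 reads of the general endothelial markers, Col13a1 stood at 49.2, 46.0 and 55.5 in chow LSEC and 19.3, 31.7 and 24.6 in NASH LSEC, with no overlap. Per 1000 sinusoidal marker reads it stood at 15.9 ± 2.54 and 11.4 ± 2.11 (SD, n = 3 each), and Col17a1 at 0.256 ± 0.0826 and 0.120 ± 0.0058. All 3 ratios were separated by diet, the sinusoidal ratio of Col13a1 narrowly, with 13.0 in the nearest library of each diet (two-sided exact permutation p = 0.1 each, the smallest possible).

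Of the short-chain network collagens, Col8a1, a gene of vessel walls and of injured tissue, rose in liver from 35.6, 33.5 and 31.8 to 238, 237 and 259 normalized reads. That is a log2 fold change of 2.83 ± 0.19 with no overlap (limma adjusted p = 6.83e-06). In LSEC, Col8a1 had 353, 134 and 266 on chow and 220, 258 and 586 in NASH, which overlap (log2 fold change 0.47, limma adjusted p = 0.575). Col8a2, Col10a1 (liver), Col7a1 of anchoring fibrils and Col28a1 were not called, and none of them had a mean above 50 normalized reads in either tissue. Col28a1 in liver was 16.5 normalized reads in NASH library 1 and at most 1.19 in the other 5 libraries.

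The effect of NASH was then compared between liver and LSEC for the 31 members in both tables, by subtracting the LSEC from the liver log2 fold change and dividing by the standard error. Among them 12 rose in both tissues, beside 4.02% of the 15766 shared genes, and Col13a1 fell in both, beside 0.755%. Col18a1 was the 1 member called in opposite directions (0.977% of shared genes), although its liver fold change turned to 0.08 with scaling to total reads. The difference itself was called for 7 of the 31 members, a share close to the 19.5% of shared genes (11.5% with the higher value in liver and 7.99% in LSEC). Liver had the higher log2 fold change for Col8a1 (difference 2.36, 95% interval 1.23 to 3.49, adjusted p = 0.0108), Col6a3 (1.59, 0.95 to 2.23, 0.0039) and Col1a1 (1.10, 0.36 to 1.84, 0.0418), by limma estimates. LSEC had the higher value for Col18a1 (difference -2.77, 95% interval -3.80 to -1.73, adjusted p = 0.00429), Col25a1 (-2.21, -3.63 to -0.79, 0.0302), Col15a1 (-1.56, -2.61 to -0.50, 0.0396) and Col5a3 (-1.54, -2.53 to -0.56, 0.0355), by the same limma estimates.

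Within types V and VI the difference was called for 1 chain each, and the chains were not tested against each other. In type VI the difference was called for Col6a3, while Col6a1 differed by 0.43 (95% interval -0.55 to 1.41) and Col6a2 by 0.72 (-0.12 to 1.57). In type V it was called for Col5a3, while Col5a1 differed by -0.23 (-1.31 to 0.85) and Col5a2 by 0.77 (0.19 to 1.36, adjusted p = 0.0608 from the limma estimates). Col13a1 differed by -0.07 (-0.67 to 0.52). Col6a3, Col8a1 and Col18a1 kept the call whichever of the 12 libraries was left out. Col1a1 lost it without liver chow library 1 or 2, liver NASH library 3, LSEC chow library 2 or 3 or LSEC NASH library 2 or 3 (adjusted p = 0.0608 to 0.136), and Col15a1 without liver chow library 1 or 2, liver NASH library 2, LSEC chow library 1 or 3 or LSEC NASH library 1 or 3 (0.0728 to 0.129). Col25a1 lost it without liver chow library 2, liver NASH library 1, LSEC chow library 1 or 2 or LSEC NASH library 1 or 3 (0.0551 to 0.0887), and Col5a3 without liver chow library 3, LSEC chow library 2 or 3 or LSEC NASH library 1 or 3 (0.0574 to 0.113). Scaling to total reads also took the call from Col15a1 (0.0689) and Col5a3 (0.0634).

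The make-up of the collagen signal was compared within libraries, as each gene's share of all member reads after division by its merged exon length, so that library scaling cancels. The shares of a library add up to the whole, so a share falls when other members rise, even at an unchanged level. In chow liver Col18a1 made up 83.3%, 82.5% and 77.5% of the signal, and in NASH liver 36.4%, 36.6% and 27.6%. The fibrillar genes together went from 6.26%, 6.71% and 9.62% to 44.4%, 45.2% and 52.3%, and beaded filament genes from 2.89 ± 0.476% to 9.27 ± 1.09% (SD, n = 3 each). FACIT genes stood at 5.65 ± 1.20% and 7.05 ± 0.891%, with overlap (exact permutation p = 0.2). With Col18a1 left out of the total, the fibrillar share was 39.5 ± 2.83% on chow and 71.2 ± 1.16% in NASH.

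In LSEC the largest share on chow belonged to Col13a1, at 68.8%, 71.4% and 66.7% of the collagen signal on chow and 7.67%, 19.2% and 15.0% in NASH. The fibrillar share went from 14.2%, 16.3% and 14.4% to 64.3%, 53.1% and 57.5%. Col3a1 alone went from 5.22 ± 0.600% to 26.9 ± 4.19%, and both type I genes together from 3.82 ± 0.924% to 22.2 ± 2.59%. FACIT genes went from 7.90 ± 3.25% to 13.8 ± 1.41%. Apart from FACIT genes in liver, the class shares per kilobase did not overlap between diets in either tissue (two-sided exact permutation p = 0.1 each, the smallest possible). Without division by length the FACIT shares overlapped in LSEC as well (exact permutation p = 0.3). In liver, the members of the class of others apart from Col18a1 made up 2.84 ± 0.345% of the signal on chow and 2.82 ± 0.520% in NASH (exact permutation p = 1.0). Col18a1 was still in that total, so the fall of its share weighs on this comparison.

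By level per kilobase, the order in chow liver was Col18a1, Col14a1 and Col3a1, and in NASH liver Col18a1, Col3a1, Col1a1 and Col1a2. The means of Col1a1 and Col1a2 in NASH liver, 1874 and 1861 normalized reads per kilobase, lay within the spread of their libraries. In chow LSEC the order was Col13a1, Col14a1 and Col3a1, at 3044, 329 and 230 normalized reads per kilobase. In NASH LSEC it was Col3a1 at 2498, followed by Col13a1 at 1171, Col14a1 at 1132 and Col1a1 at 1113, and the last 3 overlapped in range.

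**Figure D3:**
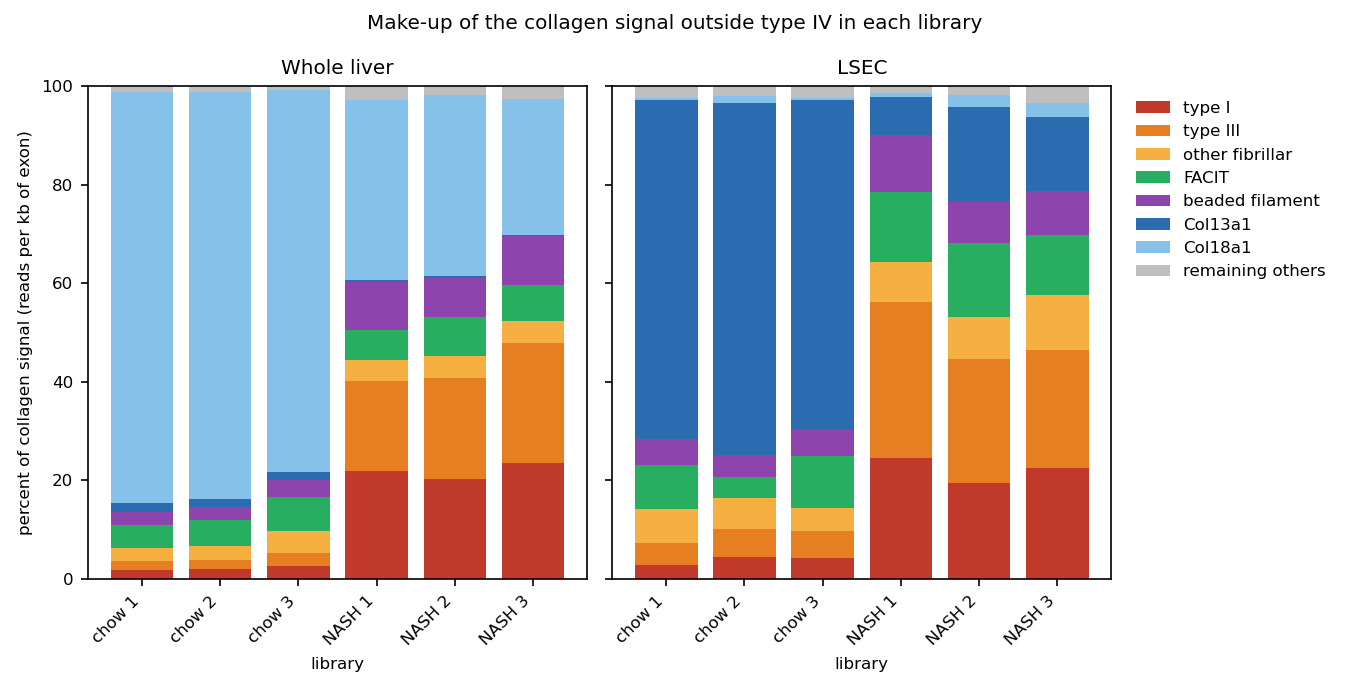
Share of the collagen signal outside type IV (percent of reads per kilobase of exon, members only) in each library of liver (left) and LSEC (right). The Col18a1 band is 77.5% to 83.3% of the liver signal on chow and 27.6% to 36.6% in NASH. The Col13a1 band is 66.7% to 71.4% of the LSEC signal on chow and 7.67% to 19.2% in NASH. Shares do not depend on the scaling of libraries, but a share also falls when other members rise.

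Ratios between chains were compared in the same way. Type I collagen is usually built from a pair of Col1a1 chains and 1 Col1a2 chain. Per kilobase of exon, the ratio of Col1a1 to Col1a2 reads in liver was 0.378, 0.379 and 0.416 on chow and 1.04, 0.999 and 0.986 in NASH. In LSEC it was 0.562, 0.735 and 0.578 on chow and 1.18, 1.13 and 1.26 in NASH. Every NASH library was above every chow library in both tissues (two-sided exact permutation p = 0.1 in each). The size of the ratio rests on the exon lengths used, while the change between diets does not.

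The ratio of Col3a1 to Col1a1 was 3.57 ± 0.0607 on chow and 1.92 ± 0.251 in NASH liver, and 3.70 ± 0.801 and 2.25 ± 0.306 in LSEC (SD, n = 3 each), with no overlap. The ratio of Col5a3 to Col5a1 was 3.08 ± 0.0928 in chow liver and 0.922 ± 0.0473 in NASH liver, also apart, and 0.167 ± 0.0788 and 0.119 ± 0.0136 in LSEC, which overlap (exact permutation p = 0.5). Col6a3 over Col6a1 went from 0.229 ± 0.0210 to 0.485 ± 0.0228 in liver, with no overlap, and stood at 0.538 ± 0.182 and 0.509 ± 0.175 in LSEC (exact permutation p = 0.8). So for types V and VI the diets were apart in liver and overlapped in LSEC, and whether these ratios changed differently in the 2 tissues was not tested.

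**Figure D4:**
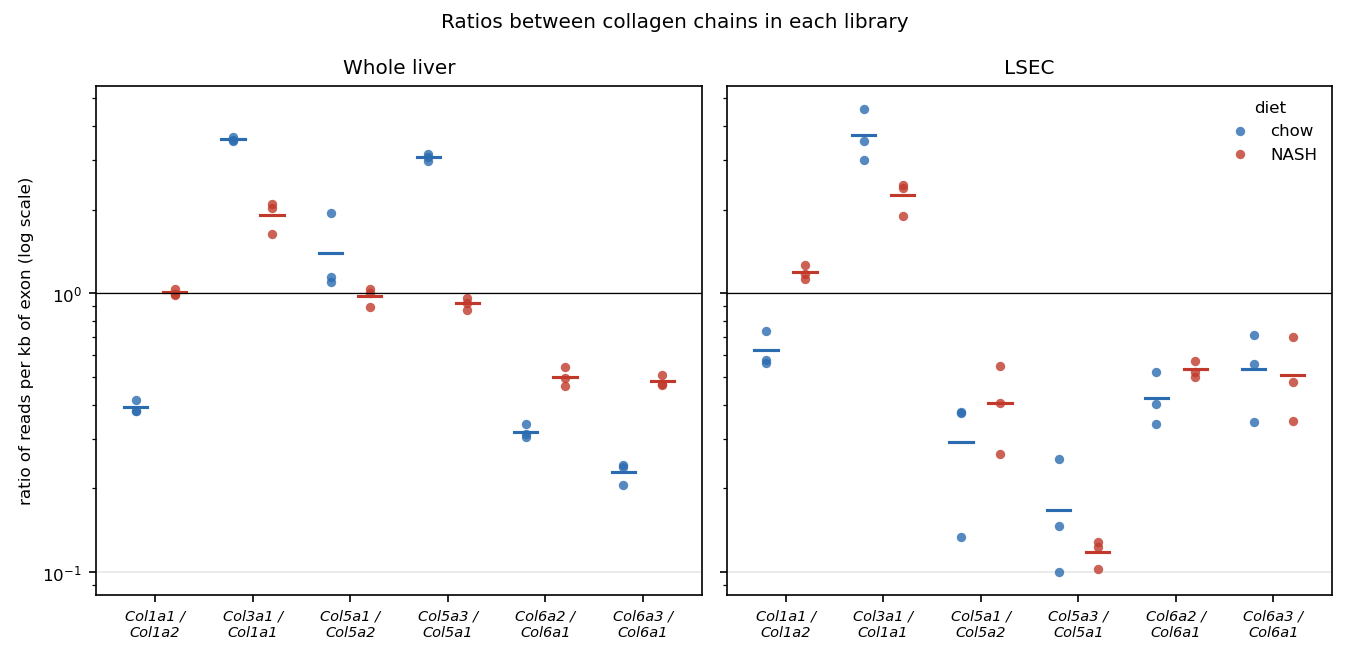
Ratios of reads per kilobase of exon (log axis) between collagen chains in each library of liver (left) and LSEC (right), blue for chow and red for NASH, with bars at the mean of 3. The ratio of Col1a1 to Col1a2 is 0.378 to 0.416 on chow and 0.986 to 1.04 in NASH liver, and 0.562 to 0.735 and 1.13 to 1.26 in LSEC.

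Genes that modify, fold, trim and crosslink collagen chains were read from the same tests. Of 31 listed genes 30 were rows in each table (all but Tll2), and 16 rose and 4 fell in liver, beside 25.0% and 21.0% of all genes, with a median log2 fold change of 0.56 beside 0.02. The smallest adjusted p-values in liver belonged to Adamts2, which removes the N-terminal propeptide of fibrillar procollagen (log2 fold change 2.53), Loxl2 and Loxl1, which crosslink collagen and elastin (2.26 and 3.46), and Serpinh1, the collagen chaperone HSP47 (2.39). Among the 4 that fell was Bmp1, the protease that removes the C-terminal propeptide, from 7188, 7492 and 6470 to 4226, 4458 and 4022 normalized reads (-0.73, limma adjusted p = 0.000162). In LSEC 9 rose and 2 fell, beside 5.24% and 2.86% of all genes, with a median of 0.56 beside 0.00, and Bmp1 was among those that rose, from 102, 92.5 and 122 to 397, 393 and 359 (1.86, limma adjusted p = 0.0048). Fkbp10, a chaperone that acts with the lysyl hydroxylases, rose by 2.25 there and Lox by 1.62, while Colgalt2, a galactosyltransferase, had a log2 fold change of -1.99. With scaling to total reads 2 of the listed genes were called lower in liver and 1 in LSEC, and the 9 rises in LSEC became 3 without chow library 3, 3 without NASH library 1, 4 without NASH library 2 and 2 without NASH library 3.

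Of 12 listed collagen receptors 11 were rows in each table (all but Gp6). In liver 7 rose and 2 fell, beside 25.0% and 21.0% of all genes (median log2 fold change 1.18), led in adjusted p by Mrc2, an endocytic collagen receptor (2.79), Ddr1, a collagen-activated kinase (2.71), Lair1, an inhibitory receptor of leukocytes (1.78), and the integrin chain Itga11 (2.32). In LSEC 6 rose, beside 5.24% of all genes (median 1.67), led by Itga11 (2.18), Cd44 (2.26), Lair1 (1.67) and Mrc2 (2.09). The integrin chain Itgb1, shared by all collagen-binding integrins, stood at -0.03 (liver) and -0.04 (LSEC) on the log2 fold change scale and was called in neither.

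Markers of matrix-producing cells were present in every LSEC library and are given beside the fibrillar values. Their calls stand beside 25.0% of all genes higher and 21.0% lower in liver, and 5.24% and 2.86% in LSEC. Of 15 stellate cell and myofibroblast markers, 2 rose in LSEC (Rgs5 and Pdgfrb), and the median log2 fold change of the 15 was 0.91. The summed reads of the 15, in which Dcn and Ecm1 are the most abundant, were 26779 to 62387 on chow and 41474 to 83829 in NASH, which overlap. Of 11 portal fibroblast and mesothelium markers 3 rose there, with a median of -0.07, and their sums, in which Cd34, Fbln2 and Eln are the most abundant, were 3252 to 4796 on chow and 6723 to 11060 in NASH. Per 1000 stellate marker reads, Col1a1 in LSEC stood at 6.64, 14.8 and 7.24 on chow and 109, 66.4 and 155 in NASH, with no overlap (two-sided exact permutation p = 0.1). In liver the same ratio was 7.29 ± 1.07 and 177 ± 8.77 (SD, n = 3 each). LSEC chow library 2, lowest for Col14a1, also had the lowest stellate marker sum, 26779 beside 42968 and 62387 in the other chow libraries. Per 1000 stellate marker reads, Col14a1 in LSEC stood at 63.8, 33.2 and 52.9 on chow and 127, 102 and 163 in NASH, with no overlap. Macrophage markers rose in 7 of 10 (median log2 fold change 1.52) and cholangiocyte markers in 1 of 6 (1.74) in LSEC. The macrophage sums there were 13498 to 37918 normalized reads on chow and 65226 to 81250 in NASH. The cholangiocyte sums, in which Spp1 is the most abundant, were 4137 to 9385 and 10347 to 47197, also with no overlap. In liver 10 of 15 stellate, 7 of 11 portal, 9 of 10 macrophage and 6 of 6 cholangiocyte markers rose, 6 of 9 hepatocyte and 7 of 10 sinusoidal markers fell, and no listed marker was at 0 in all libraries of a table. Among the hepatocyte markers that fell in liver, Ass1 held only 18.5 to 22.7 normalized reads on chow. Which cells carried the collagen RNA in the LSEC libraries was not tested.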

How the data were processed

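RNA-seq of whole liver and of bead-purified LSEC was compared between chow and NASH diet, with 3 libraries in each of 4 groups. Per the submitters' processing notes, the authors used FastQC, STAR, HTSeq, DESeq2 and Seurat with build mm10 (no version is recorded in the labels). For each tissue the authors deposited 1 table, which gives every gene a normalized read signal in each library. It also holds the authors' log2 fold change and p-value, with an adjusted p-value. The signal equals whole reads over 1 factor per library: all values came out whole within 0.01, and edgeR on those reads called 7559 genes in liver and 1165 in LSEC, beside 7691 and 1319 by limma. In liver NASH library 2 the factor is close to 1, with 47000197 reads for 47250433 normalized. The tables were normalized separately, so levels were compared within tissues or as a rate of recovered reads. Per the labels, the liver libraries were made with a kit whose reads carry no strand. The exons of Col10a1 and Col9a3 share 0.6% and 6.1% of their bases with Nt5dc1 and Tcfl5 on the opposite strand, so reads there cannot be assigned.

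Each table was fitted with limma 3.58.1 (R 4.3.3), with a variance trend, on log2(normalized reads + 1) and no filter. The difference between tissues used a t test statistic with Welch-Satterthwaite degrees of freedom from both fits. The code was tested on simulated data in which 200 genes of each table were changed. In liver 71.0% of 2-fold and 92.0% of 4-fold changes were recovered, in LSEC 15.0% and 79.0%, and 49.5% of simulated differences. More genes than were simulated as changed were called in the data, so these percentages cannot be read as the part recovered there. Alternatives used edgeR 4.0.16 and DESeq2 1.42.0 on recovered reads, other pseudocounts, filters, scalings and thresholds, and each library left out. Coordinates and exon lengths are from GENCODE M21 (mm10). Values per library are given for the 6 largest changes per direction and tissue among called members with a mean of at least 50, the top pair of each class by mean, every member that fell and others where a comparison turned on them, and for at most 4 genes per list; Bmp1 in liver, Itgb1 and Alb were added after their values were seen. The members and lists were chosen with earlier results of these data known. Liver replicate numbers did not pair the samples.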

Additional observations from a re-analysis of the deposited data

Results flagged for a closer look

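For 7 of 31 collagen genes the test of the difference between liver and LSEC was called (limma estimates, Benjamini-Hochberg over 15766 shared genes). That share is close to the 19.5% of all shared genes. Of the 7, 3 (Col6a3, Col8a1 and Col18a1) were called under every alternative other than the stricter threshold. As liver minus LSEC log2 fold change, the values were 2.36 for Col8a1, 1.59 for Col6a3 and 1.10 for Col1a1, which were higher in liver. They were -2.77 for Col18a1, -2.21 for Col25a1, -1.56 for Col15a1 and -1.54 for Col5a3, which were higher in LSEC. In the interaction term of 1 limma fit over the 4 groups, Col25a1 (adjusted p = 0.0518), Col1a1 (0.0677) and Col15a1 (0.0742) were no longer called. With scaling to total reads Col15a1 (0.0689) and Col5a3 (0.0634) were not called. Hepatocyte marker sums in LSEC ran from 6836 to 82187 normalized reads on chow and from 36196 to 74600 in NASH. Within each diet these sums put the LSEC libraries in the same order as Col18a1 did, and their part in its difference was not tested.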

How the results depend on the processing

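With the threshold at an adjusted p of 0.01, members called lower in liver went from 4 to 1, members called higher in LSEC from 13 to 5 and lower from 2 to 0, and differences from 3 to 1 (higher in liver) and from 4 to 1 (higher in LSEC). Scaling to total reads left 1 member lower in liver, where all genes went from 4179 higher and 3512 lower to 7880 and 904, gave 5 and 2 differences, left 2 processing genes lower in liver and 1 in LSEC, and reversed Col18a1 in liver (log2 fold change 0.08). Differences higher in liver numbered 5 with a normal p and 5 with a pseudocount of 10, and those higher in LSEC 2 in the interaction term of limma and 2 in that of edgeR. Leaving out each library gave ranges of 1 to 3 members lower in liver, and 5 to 12 higher and 0 to 2 lower in LSEC. Differences ranged from 2 to 5 (higher in liver) and from 1 to 4 (higher in LSEC). Processing genes ranged from 2 to 4 lower in liver, and from 2 to 8 higher and 0 to 2 lower in LSEC. The self-test recovered 15.0% of 2-fold changes in LSEC with 200 genes changed in each table. The data gave more calls: 7691 in liver, 1319 in LSEC and 3073 differences. With fewer changed genes the adjusted threshold is stricter, so no percentage of the self-test can be read as the part recovered in these data. Without division by length, Col1a1 over Col1a2 was 0.419 in chow liver (0.391 per kilobase), 1.08 in NASH liver (1.01) and 1.28 in NASH LSEC (1.19), and the fibrillar share in chow LSEC was 22.3% (15.0%).

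With the liver replicate number as a block, 18 members were called higher and 3 lower, and only Col20a1 among the members lost its call (adjusted p = 0.0556). The numbers did not pair the samples: correlations of same-numbered chow and NASH libraries were -0.0135, -0.0157 and 0.0981. No paired analysis was possible for LSEC because its columns carry no replicate numbers. Under every alternative run other than the stricter threshold, 15 of 22 calls in liver, 5 of 15 in LSEC and 3 of 7 differences were made again.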
